A study of Arabidopsis thaliana with 36 samples.

Results

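Gibberellin (GA) biosynthesis genes were followed here as 10 loci named by their identifiers, 10 of the 28775 genes in the count table: *GA1* (AT4G02780), *GA2* (AT1G79460), *GA3* (AT5G25900), *KAO1* (AT1G05160), *KAO2* (AT2G32440), *GA20OX1* (AT4G25420), *GA20OX2* (AT5G51810), *GA20OX3* (AT5G07200), *GA3OX1* (AT1G15550) and *GA3OX2* (AT1G80340). All 10 were found in the table and none was picked by its level. RNA was sequenced from the lower 1 cm of roots of 5-d-old *Arabidopsis thaliana* seedlings, with 50 to 100 seedlings pooled in a sample. Seedlings had been moved to plates with 140 mM NaCl or to mock plates, for 1 h (L*er* and *della5x*) or for 8 h (L*er*, *della5x*, *gai* and *ga4*), which gave 12 groups of 3 libraries each. L*er* was the wild-type and the background of the mutants. The quintuple mutant *della5x* carries the lesions *rgl3-4*, *rgl2-1* and *rgl1-1* together with *rga-t2* and *gai-t6*, 1 in each DELLA gene, *gai* makes a DELLA protein that GA does not destabilise, and *ga4* is a mutant of *GA3OX1* itself. The mutations were present in the whole seedling.

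GA synthesis begins in the plastid, where the products of *GA1* and *GA2* cyclise geranylgeranyl diphosphate to ent-kaurene, and continues with cytochrome P450 enzymes, the ent-kaurene oxidase *GA3* and the ent-kaurenoic acid oxidases *KAO1* and *KAO2*. The GA20ox and GA3ox dioxygenases then make the bioactive hormone. Bioactive GA binds GID1 receptors and brings about the loss of DELLA proteins. Some *GA20OX* and *GA3OX* genes, *GA3OX1* among them, are known for feedback regulation. Their transcripts are more abundant when GA action is low.

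The largest differences lay between genotypes and in the late, dioxygenase steps. At 8 h *GA20OX2* was higher in *gai* (log2 fold change 2.50) and in *ga4* (1.58) than in L*er* under mock conditions, and was nearly undetected in *della5x*. *GA20OX3* was at 0 in all 12 *della5x* libraries, and *GA3OX1* was lower there (log2 fold change -2.22). After 8 h of salt 1 or 2 of 9 tested members were called in a genotype, near the share of all genes (19% to 23.3%). The one member raised in each of the 4 genotypes at 8 h was *GA2*, by between 0.55 and 0.68 on the log2 scale.

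The 10 genes lie on 4 chromosomes of the TAIR10.1 assembly. *GA2* (chr1:29890367-29894646, plus strand), *KAO1* (chr1:1487378-1491005, minus strand), *GA3OX1* (chr1:5344388-5346342, minus strand) and *GA3OX2* (chr1:30200466-30202349, minus strand) are on chromosome 1. *KAO2* (chr2:13774588-13778026, plus strand) is on chromosome 2. *GA1* (chr4:1237671-1244822) and *GA20OX1* (chr4:12990851-12992585), both on the minus strand, are on chromosome 4. *GA3* (chr5:9035817-9038423, plus strand), *GA20OX2* (chr5:21055179-21056881, minus strand) and *GA20OX3* (chr5:2243553-2245339, minus strand) are on chromosome 5. The longest transcripts have between 2 exons (*GA20OX1*, *GA20OX2*, *GA3OX1*, *GA3OX2*) and 15 exons (*GA1*, *GA2*). Exons of 2 members share bases with another gene. *GA2* shares 78 bases, 2.93% of its exonic length, with AT1G79470 on the opposite strand, and *KAO1* shares 32 bases, 1.5%, with AT1G05170 on the same strand.

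Since close relatives could exchange reads, the longest identical run of transcript sequence was sought within each small family. The runs below, printed 5′ to 3′ from the RefSeq TAIR10.1 sequence of Col-0, were the longest for the pairs *KAO1* and *KAO2*, *GA20OX1* and *GA20OX2*, and *GA3OX1* and *GA3OX2*. They are 31, 29 and 21 bases long, against a read length of 150 bases, and each lies within an exon of both genes.
KAO1 and KAO2, chr1:1488783-1488813 and chr2:13776586-13776616: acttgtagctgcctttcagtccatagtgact
GA20OX1 and GA20OX2, chr4:12991623-12991651 and chr5:21056014-21056042: tattgtgaagcaatgagttctctatcact
GA3OX1 and GA3OX2, chr1:5345650-5345670 and chr1:30201756-30201776: atgtggtccgaaggtttcacc

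The 250 bases before the annotated start were read for the 4 members with lower transcript levels in *della5x* and for *GA2*, the member that rose with salt, because these carry the differences by genotype and by treatment. Capitals mark matches on either strand to TTTGTCG (the core bound by IDD zinc-finger proteins, partners of DELLAs) or to TATAAA. The latter are the letters of a TATA box, but strand and distance from the start were not used to judge a match. CACGTG (the G-box) and TAACAAA (a gibberellin response element) were also searched and were in none of the 10 member promoters.
GA20OX1 promoter, chr4:12992586-12992835, minus strand: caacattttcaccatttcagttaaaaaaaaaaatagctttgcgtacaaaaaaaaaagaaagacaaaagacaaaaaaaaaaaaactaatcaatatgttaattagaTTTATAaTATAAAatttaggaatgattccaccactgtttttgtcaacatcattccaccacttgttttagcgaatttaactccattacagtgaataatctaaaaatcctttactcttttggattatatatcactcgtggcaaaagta
GA20OX2 promoter, chr5:21056882-21057131, minus strand: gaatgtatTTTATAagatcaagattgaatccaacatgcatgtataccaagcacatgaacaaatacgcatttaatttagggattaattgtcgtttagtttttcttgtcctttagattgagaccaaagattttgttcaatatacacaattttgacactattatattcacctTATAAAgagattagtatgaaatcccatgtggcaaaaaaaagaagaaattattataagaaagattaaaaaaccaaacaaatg
GA20OX3 promoter, chr5:2245340-2245589, minus strand: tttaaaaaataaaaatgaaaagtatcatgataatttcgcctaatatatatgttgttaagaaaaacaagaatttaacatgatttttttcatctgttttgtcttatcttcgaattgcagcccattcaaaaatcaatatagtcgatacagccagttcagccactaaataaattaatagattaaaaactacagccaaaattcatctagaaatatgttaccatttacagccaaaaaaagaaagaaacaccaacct
GA3OX1 promoter, chr1:5346343-5346592, minus strand: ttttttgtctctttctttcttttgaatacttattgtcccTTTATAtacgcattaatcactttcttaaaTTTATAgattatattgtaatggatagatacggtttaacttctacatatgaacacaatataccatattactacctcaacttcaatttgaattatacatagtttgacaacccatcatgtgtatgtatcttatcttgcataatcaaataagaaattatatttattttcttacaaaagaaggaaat
GA2 promoter, chr1:29890117-29890366, plus strand: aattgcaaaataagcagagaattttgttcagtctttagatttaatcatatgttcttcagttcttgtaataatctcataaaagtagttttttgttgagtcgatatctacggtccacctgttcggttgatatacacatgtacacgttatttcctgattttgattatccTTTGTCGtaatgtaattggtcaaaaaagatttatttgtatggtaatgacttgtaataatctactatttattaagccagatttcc

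Only *GA2* among the 10 members held TTTGTCG, with its first base 84 bases before the start on the gene's own strand. Over 27443 promoters of the same length, 3.54% held TTTGTCG, 6.49% CACGTG, 16.1% TAACAAA and 47.3% TATAAA. *GA20OX3* held none of these 4 runs of letters. The L*er* promoters were not read, and a match is only a description of these letters in the Col-0 reference.

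Library totals were between 16772984 and 23811804 counts (median 18884857), and the correlation of log2 CPM (counts scaled to a common library size) between replicates was from 0.919 to 0.988. Root marker genes were present in all libraries (summed level 276 to 675 CPM over 8 genes). The lowest sum came from replicate 2 of *della5x* on salt at 1 h, which also correlated least with its replicates. Of the DELLA genes, *RGL1* stayed at or below 0.305 CPM with *della5x*, against 4.06 to 8.67 CPM with the other genotypes. Transcripts of the other 4 were still present in *della5x*. *RGL3* was far higher there (152 to 437 CPM, elsewhere 2.63 to 9.97 CPM), whereas *RGA* (27.3 to 53.2 CPM, elsewhere 72.4 to 121 CPM) and *GAI* (2.84 to 11.4 CPM, elsewhere 12.5 to 23.9 CPM) were lower without overlap, and *RGL2* (2.93 to 12.2 CPM, elsewhere 9.90 to 19.3 CPM) overlapped. The shoot markers *RBCS1A*, *CAB1*, *LHCB2.1* and *LHCA1* were detected too, with *LHCB2.1* at 0 in 9 of 36 libraries, and their levels are given beside the genotype results because they differed with genotype. Fewer cells that express a gene and less RNA per cell cannot be told apart in such bulk samples.

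Per kilobase of exon, the members differed widely in level. In mock-treated L*er* at 8 h, *GA3* had the highest level, at 15.8 ± 2.21 CPM per kb (SD, n = 3). *GA3OX2* followed at 9.52 ± 0.84 CPM per kb. *GA3OX1* (5.41 ± 0.87 CPM per kb) and *KAO2* (5.27 ± 0.51) came next and differed by less than their SD. *KAO1* (4.43 ± 0.25 CPM per kb) and *GA2* (4.13 ± 0.22) followed, with ranges of mean ± SD that overlapped. The *GA20OX* genes were lowest among those detected, with *GA20OX2* at 1.93 ± 0.91, *GA20OX3* at 0.81 ± 0.63 and *GA20OX1* at 0.43 ± 0.26 CPM per kb, the last 2 within an SD of each other. *GA1*, which encodes the first committed enzyme, was at 0 in 27 of 36 libraries, had 20 counts in all and never exceeded 0.287 CPM. It did not pass the filter on low counts in any comparison and was not tested. At these depths 3 counts correspond to 0.124 to 0.183 CPM, so a *GA1* level below 0.124 CPM rests on fewer than 3 counts in a library. The plot of levels in pathway order shows that the genotypes diverged from *GA20OX1* to *GA3OX1* and lay close together at *GA2* and *KAO1*.

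**Figure D1:**
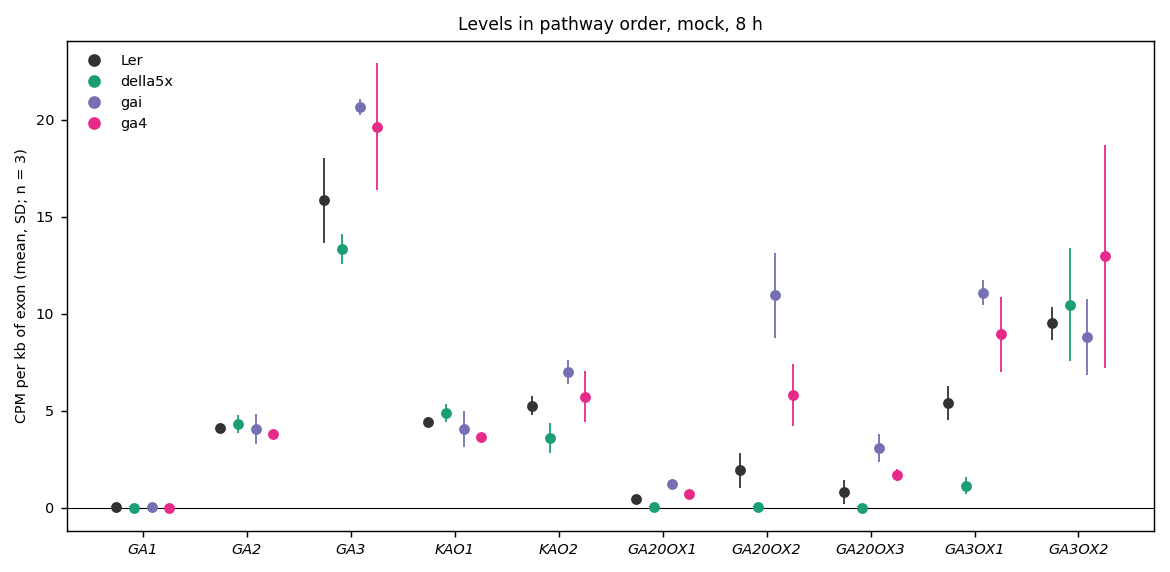
Mean level of each member in CPM per kb of exon (error bars, SD, n = 3) under mock conditions at 8 h in the 4 genotypes, in the order of the pathway. *GA20OX2* reached 11 CPM per kb in *gai* and 5.80 in *ga4* against 1.93 in L*er* and 0.0452 in *della5x*.

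Genotypes were first compared under mock conditions at 8 h. A gene was called where the edgeR quasi-likelihood test gave an adjusted P below 0.05, over all genes tested, and a log2 fold change beyond 0.5. In *della5x*, 3 of 9 tested members were called lower, against 0.321% of all 19645 genes. In *gai*, 2 of 9 were called higher, against 0.321% of all genes, and in *ga4* 1 of 9 was called higher, against 0.702%.

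*GA20OX2* encodes a GA20ox, which carries out the steps before the final hydroxylation. Under mock conditions at 8 h its level in the 3 libraries was 1.99, 4.63 and 2.41 CPM in L*er*, and 0.164, 0 and 0.0471 CPM in *della5x*. It was 21, 15.6 and 14.6 CPM in *gai*, and 10.9, 10.03 and 6.22 CPM in *ga4*. No *gai* or *ga4* library was as low as any L*er* library, no *della5x* library was as high, and *gai* lay above *ga4* without overlap, although the difference between *gai* and *ga4* was not tested. The log2 fold change against L*er* was -5.41 in *della5x* (SE 0.61, edgeR adjusted P = 0.000297). In *gai* it was 2.50 (SE 0.33, edgeR adjusted P = 0.00195), and each of the 6 libraries could be left out without losing the call. In *ga4* it was 1.58 (SE 0.33, edgeR adjusted P = 0.0287), a call that depended on single libraries. Without L*er* replicate 1 or 3 it was 1.35 (adjusted P = 0.154) or 1.45 (adjusted P = 0.127) in edgeR, and without *ga4* replicate 1 or 2 it was 1.43 (adjusted P = 0.107) or 1.50 (adjusted P = 0.0748).

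*GA20OX3* encodes another GA20ox. It had no count in any of the 12 *della5x* libraries. Under mock conditions at 8 h it was at 0.943, 2.45 and 0.517 CPM in L*er*, at 5.51, 3.62 and 5.76 CPM in *gai*, and at 3.18, 2.67 and 2.20 CPM in *ga4*. With the *della5x* group set to 3 counts in all, the level there was at least 27.4-fold below the pooled L*er* level (edgeR adjusted P = 0.00662). Such bounds leave out the spread between the L*er* libraries. All *gai* libraries were above all L*er* libraries, but the log2 fold change of 1.92 (SE 0.47) had an edgeR adjusted P of 0.0905, and 0.00416 in DESeq2. Leaving out L*er* replicate 2, the highest of its group, gave 2.74 (edgeR adjusted P = 0.0229). In *ga4* the *GA20OX3* value was 1.03 (SE 0.48, edgeR adjusted P = 0.406).

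*GA20OX1* had the lowest mean of the *GA20OX* members in mock-treated L*er*, *gai* and *ga4* at 8 h. Its mock levels at 8 h were 0.471, 1.12 and 0.402 CPM in L*er*, 1.84, 2.01 and 1.87 CPM in *gai*, 1.26, 1.26 and 0.858 CPM in *ga4*, and 0.219, 0 and 0 CPM in *della5x*. The groups *gai* and *della5x* did not overlap L*er*, whereas *ga4* did. None of these was called in edgeR, with adjusted P of 0.163 for *della5x*, 0.276 for *gai* and 0.700 for *ga4*. For *della5x* DESeq2 gave an adjusted P of 0.0180, and edgeR gave 0.0363 without *della5x* replicate 1, the library that held all of the counts of its group.

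*GA3OX1* encodes a GA3ox, the enzyme of the last step to bioactive GA, and is the gene mutated in *ga4*. It was at 8.07, 9.63 and 7.01 CPM in mock-treated L*er* at 8 h, and at 1.10, 2.46 and 1.65 CPM in *della5x*. The levels were 17.6, 17.3 and 15.8 CPM in *gai*, and 16.8, 13.1 and 10.9 CPM in *ga4*. Libraries of *gai* and *ga4* were all above L*er* and those of *della5x* all below. The log2 fold change in *della5x* was -2.22 (SE 0.25, edgeR adjusted P = 0.000276), and the call held without any one of the 6 libraries. In *gai* it was 1.03 (SE 0.22, edgeR adjusted P = 0.0413), and leaving out any 1 of the 6 libraries ended the call, with adjusted P from 0.0567 to 0.225 and a log2 fold change from 0.93 to 1.15. One fit of all 36 libraries gave *gai* an edgeR adjusted P of 0.318. In *ga4* it was 0.72 (SE 0.22, edgeR adjusted P = 0.142), and 0.0410 in DESeq2, for transcripts of the mutated gene.

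*GA3OX2*, the other GA3ox gene of seedlings, did not follow this order. Under mock conditions at 8 h it was at 12.6, 15 and 14.1 CPM in L*er*, 13.4, 12.3 and 20.1 CPM in *della5x*, 13.5, 9.71 and 15.3 CPM in *gai*, and 18.7, 10.6 and 27.4 CPM in *ga4*. Every mutant group overlapped L*er*. The log2 fold changes were 0.14 for *della5x*, -0.11 for *gai* and 0.44 for *ga4* (each SE 0.28), and their edgeR adjusted P lay at 0.943, 0.895 and 0.582.

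The early steps were not called in any mutant under mock conditions at 8 h. *GA3* was at 35.4, 29.1 and 27.3 CPM in L*er*, 40.8, 39.3 and 39.5 CPM in *gai*, and 25.1, 24.7 and 27.5 CPM in *della5x*. Its log2 fold change in *gai* was 0.38 (SE 0.13, edgeR adjusted P = 0.199). *KAO2* was at 10.6, 11.2 and 9.25 CPM in L*er* and at 8.55, 5.49 and 7.07 CPM in *della5x*, so that these groups did not overlap, with a log2 fold change of -0.56 (SE 0.20, edgeR adjusted P = 0.350). *KAO1* and *GA2* were not called either.

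**Figure D2:**
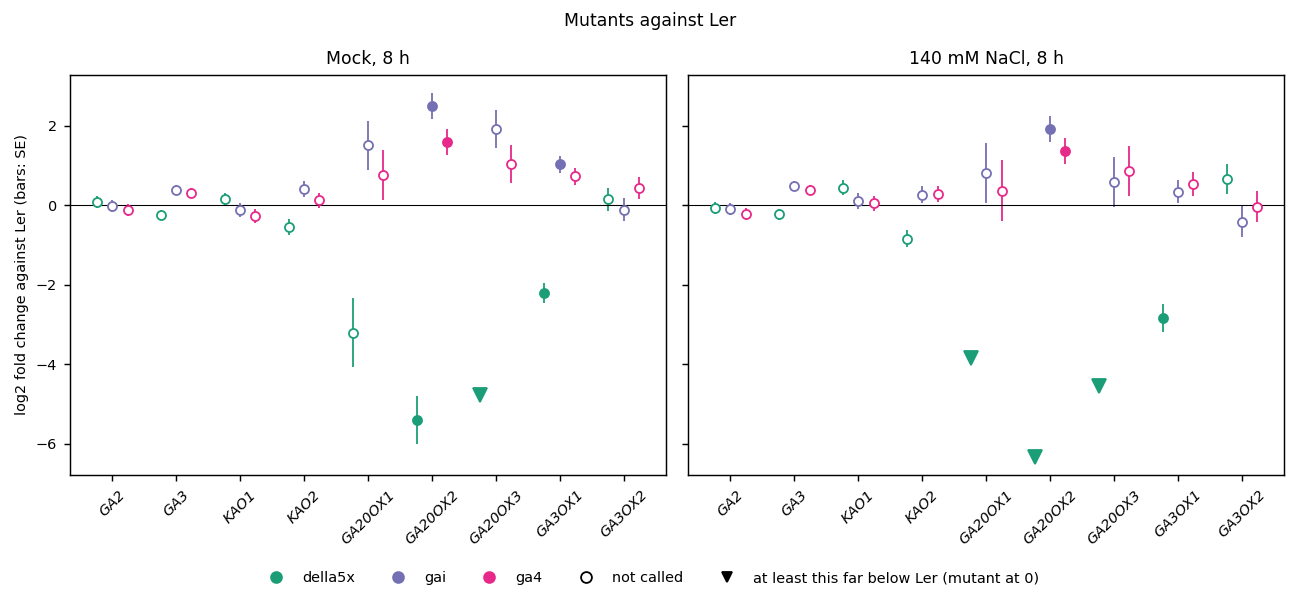
Log2 fold change of each tested member in *della5x*, *gai* and *ga4* against L*er* at 8 h (bars, SE), under mock conditions (left) and on 140 mM NaCl (right). Filled symbols passed the edgeR call and open ones did not. Triangles give the least distance below the pooled L*er* level where the mutant libraries were all at 0, with 3 counts as the floor. *GA20OX2* is called in all 3 mutants on both plates, and *GA3OX2* in none.

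On salt at 8 h, 4 of 9 tested members were called lower in *della5x* than in L*er*, against 0.545% of 20355 genes. In *gai* 1 of 9 was called higher, against 0.334% of all genes, and in *ga4* 1 of 9, against 0.398%, which was *GA20OX2* in both. These comparisons used none of the mock libraries for their means. The mutants share their L*er* libraries within a treatment.

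*GA20OX2* on salt at 8 h was at 3.12, 5.43 and 4.51 CPM in L*er*, 19.8, 17.2 and 12.2 CPM in *gai*, 13.1, 12.2 and 8.35 CPM in *ga4*, and 0 in all 3 *della5x* libraries. It was therefore at least 81.0-fold below the pooled L*er* level in *della5x* (edgeR adjusted P = 8.82e-07). The log2 fold change was 1.91 in *gai* (SE 0.33, edgeR adjusted P = 0.00462) and 1.36 in *ga4* (SE 0.33, edgeR adjusted P = 0.0484). Leaving out 5 of the 6 *ga4* and L*er* libraries in turn (all but *ga4* replicate 3) ended the *ga4* call, with values from 1.17 to 1.55 and edgeR adjusted P from 0.0843 to 0.215.

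*GA3OX1* on salt at 8 h was at 11.6, 9.25 and 11.7 CPM in L*er* and at 0.888, 0.668 and 2.90 CPM in *della5x*, without overlap. Its log2 fold change was -2.85 (SE 0.35, edgeR adjusted P = 3.29e-05). In *gai* it was at 12.8, 14.6 and 14 CPM and in *ga4* at 12.7, 19.7 and 14.8 CPM. Both of these groups lay above the L*er* range, with log2 fold changes of 0.34 (SE 0.30, edgeR adjusted P = 0.687) and 0.54 (SE 0.30, edgeR adjusted P = 0.461).

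*GA3* in *gai* was at 33.9, 33.2 and 33.6 CPM on salt at 8 h, above the 19.4, 23.5 and 28.9 CPM of L*er* (log2 fold change 0.48, SE 0.14, edgeR adjusted P = 0.0840). Without L*er* replicate 3 the value was 0.64 (edgeR adjusted P = 0.0388).

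*GA20OX3* in the salt libraries at 8 h was at 0.668, 1.43 and 1.60 CPM in L*er*. In *della5x* it was at least 23.3-fold below the pooled L*er* level (edgeR adjusted P = 0.00756). *GA20OX1* was at 0.334, 1.73 and 0.376 CPM in L*er* and at 0 in the *della5x* libraries. That was at least 14.3-fold below the pooled L*er* level, to which L*er* replicate 2 gave most (edgeR adjusted P = 0.0247). That *GA20OX1* call was lost without L*er* replicate 2 (edgeR adjusted P = 0.117) and without any one of the *della5x* libraries (0.0608 to 0.0965). *KAO2* was at 11.4, 11.4 and 13.2 CPM in L*er* against 5.56, 7.09 and 7.38 CPM in *della5x*. The *KAO2* groups did not overlap, and the log2 fold change of -0.84 (SE 0.22) had an adjusted P of 0.0619 in edgeR and 0.0155 in DESeq2.

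At 1 h only L*er* and *della5x* were sampled. Under mock conditions 0 of 8 tested members were called in edgeR (0.165% of 19417 genes were). At an unadjusted P below 0.05 there were 4 members, against 13% of all genes, and DESeq2 and the fit of all 36 libraries each called 3 (*GA20OX2*, *GA20OX3* and *GA3OX1*). *GA20OX2* was at 2.56, 1.81 and 2.91 CPM in L*er* and at 0, 0.331 and 0.0441 CPM in *della5x* (log2 fold change -4.30, SE 0.82, edgeR adjusted P = 0.138, DESeq2 adjusted P = 3.09e-05). *GA3OX1* was at 6.47, 5.98 and 7.06 CPM in L*er* and at 1.26, 2.31 and 0.837 CPM in *della5x* (log2 fold change -2.16, SE 0.37, edgeR adjusted P = 0.111, DESeq2 adjusted P = 1.08e-05), and the edgeR adjusted P was 0.0450 without L*er* replicate 1. *GA20OX3* was at 1.65, 1.04 and 0.778 CPM in L*er*. In *della5x* it was at least 23.2-fold below the pooled L*er* level (edgeR adjusted P = 0.120, DESeq2 adjusted P = 0.000126). None of these 3 pairs of groups overlapped, but how many of all genes separate in this way was not counted. *GA2* stood the other way, at 9.28, 10.1 and 10.02 CPM in L*er* and 14.4, 14.3 and 12 CPM in *della5x* (log2 fold change 0.46, SE 0.13, edgeR adjusted P = 0.255).

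On salt at 1 h, 1 of 9 tested members was called lower in *della5x*, against 0.0548% of 20073 genes. This was *GA20OX3*, at 2.02, 3.78 and 2.59 CPM in L*er*. In *della5x* it was at least 51.6-fold below the pooled L*er* level (edgeR adjusted P = 0.0159). Without any one of the L*er* libraries the edgeR adjusted P was 0.0596 to 0.0929, and without *della5x* replicate 2, the library that stood apart, it was 0.0353. *GA20OX2* was at 3.09, 3.99 and 3.06 CPM in L*er* and at 0.268, 0.296 and 0.0567 CPM in *della5x* (log2 fold change -3.97, SE 0.74, edgeR adjusted P = 0.0846). DESeq2 gave *GA20OX2* an adjusted P of 1.16e-07, and -4.31 was the edgeR value without *della5x* replicate 2. *GA3OX1* was at 2.52, 3.63 and 3.01 CPM in L*er* and at 1.28, 3.79 and 0.453 CPM in *della5x*, where replicate 2 exceeded all L*er* libraries (log2 fold change -0.71, SE 0.58, edgeR adjusted P = 0.677, and -1.79 with adjusted P = 0.418 without that library).

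**Figure D3:**
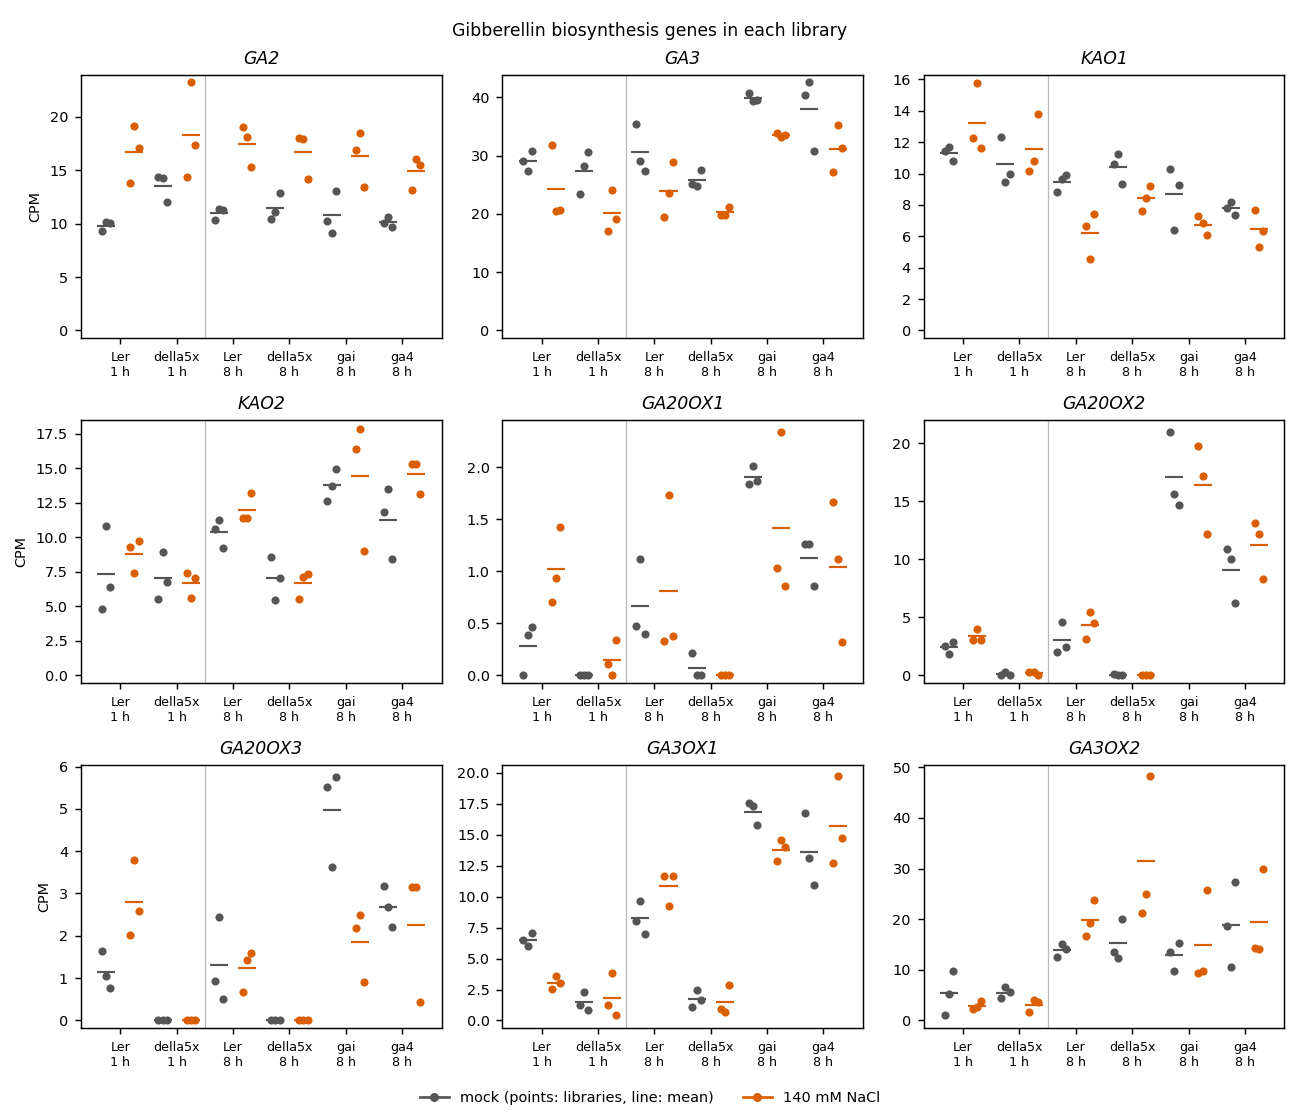
CPM of the 9 detected members in each of the 36 libraries (points) with the group mean (line), under mock conditions (grey) and on 140 mM NaCl (orange), each panel with its own axis from 0. *GA20OX3* is at 0 in all 12 *della5x* libraries and reaches 5.76 CPM in *gai*, while *GA2* is higher on salt than under mock conditions in each pair of 8 h groups.

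Shoot marker genes differed in level between genotypes too, with sums that were low in *della5x* and high in *gai*. Their summed level under mock conditions at 8 h was 55.3 to 74.1 CPM in L*er*, 16.7 to 37.4 CPM in *della5x*, 107 to 143 CPM in *gai* and 36.6 to 110 CPM in *ga4*. On salt at 8 h the sums were 25.1 to 35.2 CPM in L*er*, 9.46 to 16.2 CPM in *della5x*, 42.1 to 90.7 CPM in *gai* and 24 to 58.9 CPM in *ga4*. At 1 h they were 31.1 to 63.6 CPM in L*er* and 15.9 to 21.6 CPM in *della5x* under mock conditions, and 55.8 to 75.4 CPM and 16.0 to 37.1 CPM on salt. One marker was called in a genotype comparison, *RBCS1A* in *gai* on salt (log2 fold change 2.00, edgeR adjusted P = 0.00891). Of the 3 markers tested under mock conditions at 8 h, the unadjusted P was below 0.05 for 3 with *della5x*, 2 with *gai* and 0 with *ga4*. The share of all genes at that limit is not given here for 8 h. For *della5x* under mock conditions at 1 h it was 13%. The part of these cells or transcripts in the *GA20OX* and *GA3OX1* differences was not tested. Within genotypes, 2 of these 4 markers were called lower with salt at 8 h in L*er*, *della5x* and *gai*, and 1 in *ga4*.

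The salt responses were then compared within each genotype. After 8 h, 2 of 9 tested members were called in L*er*, 1 higher and 1 lower (23.3% of all genes were called in either direction). In *della5x* 2 were called, both higher (22.8% of all genes), and in *gai* 1 was called (19%), as in *ga4* (19.7%). After 1 h, 1 of 9 was called in L*er* (13.9%) and 0 of 9 in *della5x* (10.1%), where 2 had an unadjusted P below 0.05 (26.4% of all genes did) and DESeq2 also called 0. With 9 members tested, these counts lie near the shares of all genes. Root marker genes moved with the treatment at 8 h, with 3 of 8 called lower in L*er* and *ga4* and 4 of 8 in *della5x* and *gai*, among them *SHR* and *CASP1* in each genotype. Their summed level was 549.95 to 621 CPM under mock conditions and 400.4 to 474 CPM on salt in L*er*. It was 516 to 604 and 381 to 453 CPM in *della5x*, 632 to 675 and 382 to 534 CPM in *gai*, and 504 to 642 and 383 to 488 CPM in *ga4*, without overlap in any genotype. Their part in the salt responses of the members was not tested.

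*GA2*, the ent-kaurene synthase gene, was the member called most often. In L*er* it was at 10.3, 11.4 and 11.3 CPM under mock conditions and at 19.1, 18.1 and 15.3 CPM on salt at 8 h, without overlap (log2 fold change 0.68, SE 0.15, edgeR adjusted P = 0.00134). In *della5x* it went from 10.5, 11.1 and 12.9 to 18, 17.9 and 14.1 CPM (0.55, SE 0.15, edgeR adjusted P = 0.00778). In *gai* it went from 10.3, 9.13 and 13 to 16.9, 18.5 and 13.5 CPM (0.59, SE 0.15, edgeR adjusted P = 0.00508). In *ga4* it went from 10.1, 10.6 and 9.70 to 13.2, 16.1 and 15.5 CPM (0.56, SE 0.15, edgeR adjusted P = 0.00771). All 4 pairs of groups were separate, and the calls in L*er* and *ga4* held without any one library. The value fell just under the 0.5 limit, at 0.47 to 0.49 with edgeR adjusted P below 0.05, without mock replicate 1 or salt replicate 1 or 2 of *della5x*, and without mock or salt replicate 2 of *gai*.

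The rise of *GA2* was already present at 1 h in L*er*, from 9.28, 10.1 and 10.02 CPM to 13.8, 19.2 and 17 CPM (log2 fold change 0.78, SE 0.19, edgeR adjusted P = 0.0152). It was not called without salt replicate 2 (0.67, edgeR adjusted P = 0.0587) or salt replicate 3 (0.76, edgeR adjusted P = 0.0533). In *della5x* at 1 h the value was 0.45 (SE 0.18, edgeR adjusted P = 0.142), and 0.23 (adjusted P = 0.378) without the library that stood apart. AT1G79470, with which *GA2* shares exonic bases, rose as well at 8 h, by 1.57 on the log2 scale in L*er* (edgeR adjusted P = 1.43e-10), but not at 1 h, where its value was -0.17 (edgeR adjusted P = 0.712). Whether reads were counted by strand is not given in the sources used here, and the part of the shared 78 bases in the *GA2* values was not tested.

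*KAO1* was the one member called lower on salt. In L*er* at 8 h it was at 8.85, 9.63 and 9.88 CPM under mock conditions and at 6.68, 4.54 and 7.42 CPM on salt, without overlap (log2 fold change -0.59, SE 0.19, edgeR adjusted P = 0.0216). The call was lost without mock replicate 3 (-0.57, edgeR adjusted P = 0.0546) or salt replicate 2 (-0.43, edgeR adjusted P = 0.113). The values in *della5x*, *gai* and *ga4* were -0.30, -0.36 and -0.27, each with SE 0.19 and none called, though in *gai* the value was -0.54 (edgeR adjusted P = 0.0497) without mock replicate 2. AT1G05170, which shares 32 bases with *KAO1*, moved the other way in L*er* at 8 h, by 0.84 on the log2 scale (edgeR adjusted P = 5.15e-05).

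*GA3OX2* was called higher in *della5x* at 8 h, from 13.4, 12.3 and 20.1 CPM to 21.1, 25 and 48.2 CPM (log2 fold change 1.05, SE 0.39, edgeR adjusted P = 0.0431). The highest of these 6 libraries, salt replicate 3, carried much of it, since without it the value was 0.60 (edgeR adjusted P = 0.286). It was also not called without mock replicate 1 (0.97, edgeR adjusted P = 0.126) or mock replicate 2 (0.91, edgeR adjusted P = 0.147), nor in DESeq2 (adjusted P = 0.0526). In L*er* *GA3OX2* was at 12.6, 15 and 14.1 CPM and at 16.7, 19.2 and 23.9 CPM, which did not overlap but gave 0.53 (SE 0.39, edgeR adjusted P = 0.333).

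*GA3* had negative values in all 6 salt responses, from -0.43 (*della5x*, 1 h) to -0.24, and none was called. In *gai* at 8 h it was at 40.8, 39.3 and 39.5 CPM under mock conditions and at 33.9, 33.2 and 33.6 CPM on salt, without overlap (log2 fold change -0.24, SE 0.13, edgeR adjusted P = 0.200). In L*er* at 8 h the value was -0.34 (SE 0.14, edgeR adjusted P = 0.0596), and -0.50 (edgeR adjusted P = 0.0113) without salt replicate 3. *KAO2* was not called in any salt response.

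The *GA20OX* genes were not called in any salt response. In L*er* at 1 h *GA20OX3* was at 1.65, 1.04 and 0.778 CPM under mock conditions and at 2.02, 3.78 and 2.59 CPM on salt, without overlap, and its value was 1.29 (SE 0.50, edgeR adjusted P = 0.131). *GA20OX1* in the same libraries was at 0, 0.384 and 0.467 CPM and at 0.701, 0.933 and 1.42 CPM, also without overlap (1.80, SE 1.02, edgeR adjusted P = 0.277). In *gai* at 8 h *GA20OX3* was lower on salt, at 2.19, 2.49 and 0.912 CPM against 5.51, 3.62 and 5.76 CPM (-1.40, SE 0.61, edgeR adjusted P = 0.106). In *della5x* a salt response of *GA20OX3* could not be estimated, because all libraries were at 0.

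*GA3OX1* gave values of opposite sign in L*er* at the 2 times. At 1 h it was at 6.47, 5.98 and 7.06 CPM under mock conditions and at 2.52, 3.63 and 3.01 CPM on salt, a separation that was not called (log2 fold change -1.08, SE 0.57, edgeR adjusted P = 0.229). At 8 h it was at 8.07, 9.63 and 7.01 CPM and at 11.6, 9.25 and 11.7 CPM (0.41, SE 0.30, edgeR adjusted P = 0.335). In *della5x* at 8 h it was at 1.10, 2.46 and 1.65 CPM and at 0.888, 0.668 and 2.90 CPM (-0.22, SE 0.38, edgeR adjusted P = 0.711), and -1.17 (edgeR adjusted P = 0.0144) was the value without salt replicate 3.

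The difference between the L*er* responses, 8 h minus 1 h, was tested in the 12 L*er* libraries, where 2 of 9 members were called, 1 higher and 1 lower (18.5% of all genes in either direction). For *GA3OX1* this difference was 1.48 (SE 0.26, edgeR adjusted P = 0.00209), and it was called without any one of the 12 libraries, though not in the fit of all 36 libraries (edgeR adjusted P = 0.0817). For *KAO1* it was -0.84 (SE 0.25, edgeR adjusted P = 0.0323). That call was lost without 8 of the 12 libraries in turn (each mock library of either time, and salt replicate 2 of either time), with values from -0.87 to -0.66 and edgeR adjusted P from 0.0539 to 0.0741. For *GA3OX2* it was 1.42 (SE 0.65, edgeR adjusted P = 0.148), and 1.92 (edgeR adjusted P = 0.00329) without mock replicate 1 of 1 h, the lowest library of its group.

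**Figure D4:**
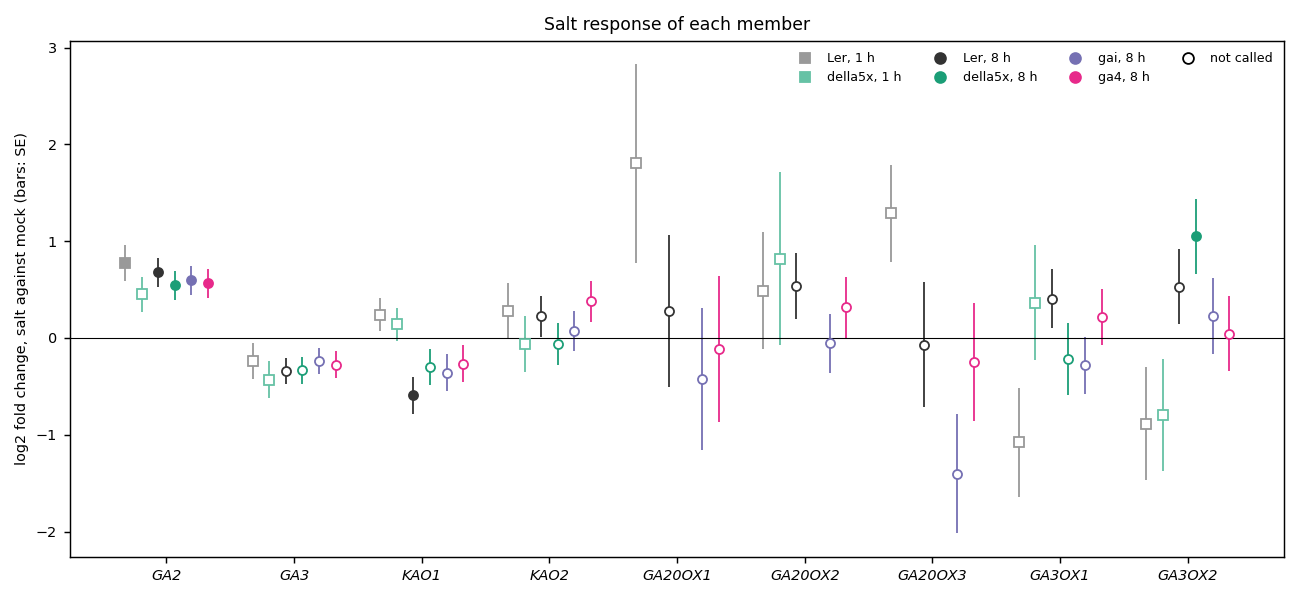
Log2 fold change of salt against mock for each detected member (bars, SE) in L*er* and *della5x* at 1 h (squares) and in all 4 genotypes at 8 h (circles). Filled symbols were called and open symbols were not, and pairs with a group at 0 in all 3 libraries are left out. *GA2* is above 0 in all 6 responses and *GA3* below 0 in all 6.

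Whether a mutant changed the salt response of a member was tested directly. No member was called in any of the 4 differences between a mutant's response and that of L*er* (*della5x* at 1 h and 8 h, *gai* and *ga4* at 8 h), with every edgeR adjusted P at 1.00 after rounding and 1 member at an unadjusted P below 0.05, *GA20OX2* in *della5x* at 8 h, where the salt libraries were at 0. Over all genes 0%, 0%, 0.0344% and 0% were called in edgeR, in that order, and 4.11%, 4.72%, 5.27% and 5.04% had an unadjusted P below 0.05. DESeq2 called no member either. *GA20OX3* was among the tested members, but with all its *della5x* libraries at 0 the *della5x* differences could not show a changed response. *GA20OX1* was also at 0 in the *della5x* groups of mock at 1 h and salt at 8 h. For *GA2* these differences were -0.32 (SE 0.26) for *della5x* at 1 h, and at 8 h -0.13 (SE 0.21) for *della5x*, -0.08 (SE 0.21) for *gai* and -0.12 (SE 0.21) for *ga4*.

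Genes around the pathway were counted in the same salt responses at 8 h, in which 23.3% of all genes were called in L*er*, 22.8% in *della5x*, 19% in *gai* and 19.7% in *ga4*. With 5 to 8 genes tested in a list, the counts of called genes are read as a description only. Of 7 GA2ox genes, which encode enzymes that inactivate GA, 5 were tested, and 2 were called higher in each of the 4 genotypes, *GA2OX2* (log2 fold change 1.97 to 2.64) and *GA2OX6* (1.34 to 1.41). *GA2OX6* went from 28 ± 4.52 CPM to 73.6 ± 8.19 CPM in L*er* (SD, n = 3, edgeR adjusted P = 0.000483). In L*er* at 1 h *GA2OX2*, *GA2OX6* and *GA2OX8* were called higher (3 of 5 tested, against 13.9% of all genes called). In *della5x* at 1 h *GA2OX8* was (1 of 5, against 10.1% of all genes). One gene of this list, *GA2OX1*, was called lower, in *ga4* at 8 h (-2.88, SE 1.02, edgeR adjusted P = 0.0392). Its level in the 6 *ga4* libraries was only 0 to 1.82 CPM, with 1 library at 0, so the value rests on few counts.

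Of 5 genes of GA reception, 1 was called higher at 8 h in each genotype, the receptor gene *GID1B*, a share near that of all genes. In L*er* it went from 23.7 ± 0.66 to 58.5 ± 1.81 CPM (SD, n = 3, log2 fold change 1.31, edgeR adjusted P = 5.64e-10). It was also the one gene of this list called between genotypes, lower in *della5x* than in L*er* under mock conditions (-0.55, SE 0.11, edgeR adjusted P = 0.0377) and on salt (-1.11, SE 0.09, edgeR adjusted P = 1.19e-07) at 8 h.

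Of 8 genes that supply geranylgeranyl diphosphate, the substrate of *GA1*, *DXS* was called lower at 8 h in each genotype, by -0.85 to -0.75 on the log2 scale. *DXS* encodes the first enzyme of the plastid isoprenoid pathway, and in L*er* it was at 122 ± 11.9 CPM under mock conditions and 71.2 ± 5.92 CPM on salt (SD, n = 3, edgeR adjusted P = 2.62e-06). The other 7 were not called in L*er*, *gai* or *ga4* at 8 h. In *della5x* 2 of the 8 were called lower at 8 h, *DXS* among them (22.8% of all genes were called). At 1 h 1 of the 8 was called higher in *della5x* (10.1% of all genes were called). The remaining GA20ox and GA3ox genes, *GA20OX4*, *GA20OX5*, *GA3OX3* and *GA3OX4*, did not pass the filter on low counts.

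The pattern of the members over the 12 group means of log2 CPM was described by Pearson correlation, without a test, since groups of 1 genotype share their background. The *GA20OX* genes had r = 0.963 for *GA20OX1* and *GA20OX2*, 0.957 for *GA20OX2* and *GA20OX3* and 0.949 for *GA20OX1* and *GA20OX3*. These r values rest partly on *della5x* means at or near the floor of log2 CPM (-3.257, the value without counts). In the *della5x* groups *GA20OX3* was always at -3.257, *GA20OX2* at -3.257 to -1.79 and *GA20OX1* at -3.257 to -2.22. *GA3OX1* had r = 0.954 with *GA20OX2*, within the range of the *GA20OX* pairs. With *GA20OX1* (r = 0.882) and *GA20OX3* (r = 0.887) it lay below that range. *GA3OX2* did not follow *GA3OX1* closely (r = 0.355). *KAO2* was nearer to *GA3OX1* (r = 0.909) than to its paralogue *KAO1* (r = -0.744).

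Among 20697 genes, the 2 most like each *GA20OX* gene were *LHCB4.1* (r = 0.968) and *CAB1* (0.967) for *GA20OX1*, *CAB3* (0.968) and AT3G05190 (0.965) for *GA20OX2*, and *CAB3* (0.966) and AT4G32208 (0.959) for *GA20OX3*. *LHCB4.1*, *CAB1* and *CAB3* encode light-harvesting proteins, and *CAB1* is one of the shoot markers above. Closest to *GA3OX1* was *IDD7* (0.956), a gene of the IDD zinc-finger family, with *GA20OX2* next. Closest to *GA3OX2* was *FLS1* (0.963), which encodes a flavonol synthase, and closest to *GA2* were AT5G40000 (0.975) and *ML4* (0.973). AT4G32208 and AT5G40000 also had a lowest group mean at the floor (-3.257).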

How the data were processed

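RNA of 36 pooled root samples (12 groups of 3) had been sequenced as paired-end reads of 150 bases. The authors trimmed reads with fastp, aligned them with HISAT2 to TAIR10 and counted them per gene with HTSeq. Versions, counting mode and strand setting are not given in the sources used here. The deposited values are raw counts per gene, without normalization. Replicate numbers follow sample order only and pair nothing. Replicates are pools of seedlings, and P values measure the spread between these pools.

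Counts were tested with edgeR 4.0.16 (R 4.3.3, limma 3.58.1), with TMM normalization and its quasi-likelihood test on genes that passed filterByExpr (minimum count 10, minimum total 15). Salt responses, their differences and genotype comparisons on salt came from 1 fit per time point, genotypes under mock conditions from a fit of the mock libraries, and 8 h minus 1 h from the L*er* libraries. P values were Benjamini-Hochberg adjusted over all genes tested. A call required an adjusted P below 0.05 and a log2 fold change beyond 0.5. The SE is the log2 fold change divided by the root of F. CPM values use TMM over all 36 libraries. A group at 0 was set to a floor of 3 counts over the group. A bound covers counting error in that group only and takes the pooled level of the other group as exact. Correlations used log2 CPM with a prior count of 2. The procedure was tested on simulated data.

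Named genes were the 10 members, fixed lists of pathway, DELLA and marker genes, and for each member tested the 2 genes most correlated over group means. The overlapping genes AT1G79470 and AT1G05170 and the motif TATAAA were added after values were seen. Members and lists were chosen with earlier results of these data known. Sequences and positions are from RefSeq TAIR10.1, in which 28009 of the 28775 identifiers were found. Alternatives were RLE size factors, no low-count filter, no fold change limit, DESeq2 1.42.0, 1 fit of all 36 libraries, a prior count of 0.5, and each library left out in turn.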

Additional observations from a re-analysis of the deposited data

Results flagged for a closer look

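In L*er* the salt responses at 1 h and 8 h differed by a test of the difference itself (8 h minus 1 h) for *GA3OX1* and *KAO1*. For *GA3OX1* the difference was 1.48 on the log2 scale (edgeR adjusted P = 0.00209). It was not called in the fit of all 36 libraries (edgeR adjusted P = 0.0817). For *KAO1* the difference was -0.84 (edgeR adjusted P = 0.0323), a call lost on leaving out most of the libraries in turn. Time and sampling cannot be told apart in these differences.

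For *GA3OX2* in *della5x* every salt library lay below every mock library at 1 h (log2 fold change -0.80, edgeR adjusted P = 0.434) and above every mock library at 8 h (1.05, edgeR adjusted P = 0.0431). The difference between the times was not tested in *della5x*.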

How the results depend on the processing

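RLE size factors, no low-count filter and no fold change limit changed no call of a member. DESeq2 called 1 member in the *della5x* salt response at 8 h (2 in edgeR), 3 in *della5x* against L*er* under mock conditions at 1 h (0), 2 in *ga4* under mock conditions (1) and 2 in *della5x* on salt at 1 h (1). One fit of all 36 libraries called 1, 3, 0 and 2 in these 4 comparisons, 1 in *gai* under mock conditions (2), 0 in *ga4* on salt (1) and 1 in the 8 h minus 1 h difference (2). DESeq2 also called 4 in *della5x* (3) and 3 in *gai* (2) under mock conditions at 8 h, and 5 in *della5x* on salt at 8 h (4). Over all genes, in the 8 genotype comparisons, edgeR called 32 to 258 genes, DESeq2 230 to 526 and the fit of all 36 libraries 60 to 258. For the differences of salt responses (*della5x* at 1 h and 8 h, *gai*, *ga4*) DESeq2 called 5, 6, 84 and 18 genes against 0, 0, 7 and 0. The causes were not tested. Leaving out 1 library turned the sign of 4 uncalled values named in the report. They were *GA3OX1* in the *della5x* salt response at 8 h (-1.17 to 0.13), *GA2* in the difference of *gai* and L*er* responses (-0.18 to 0.081), and *GA3OX2* under mock conditions at 8 h in *della5x* (-0.10 to 0.28) and *gai* (-0.27 to 0.051).

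No paired analysis was possible because the samples carry no replicate numbers of their own. *GA20OX1* and *GA20OX3* were at or below 2.45 CPM in every mock library of L*er*, so their values rest on few counts.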
